A study of Mus musculus with 9 samples.

Results

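The cytosolic ribosome joins a large and a small subunit, each built from ribosomal RNA and a set of ribosomal proteins. The mRNAs of these proteins start with a tract of pyrimidines, the terminal oligopyrimidine (TOP) tract, through which mTOR signalling and the RNA-binding protein LARP1 set how many of them are loaded with ribosomes. A growing oocyte stores ribosomes for the embryo, and a fully grown oocyte makes little new RNA, so what it translates during maturation comes from mRNA it already holds.

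The genes described here are the cytosolic ribosomal protein genes, chosen by symbol (Rpl or Rps with a number and an optional letter a, x, l or y, plus Rplp0, Rplp1, Rplp2 and Rpsa, without pseudogenes marked -ps and without the Rps6k kinases). Of 89 such symbols in the RefSeq gene table of GRCm38.p6, 49 had at least 1 probe set that names no other gene, and these 49 of 18193 genes tested are the members: 26 of the large subunit and 23 of the small subunit. A further 28 symbols stood only on probe sets that list several symbols, and 12 were not analysed here. Among the 49, RefSeq lists Rps4l as a transcribed pseudogene, and the other 48 as protein-coding.

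Polysome-bound mRNA, the mRNA carried by ribosomes, was measured on 9 Affymetrix mouse arrays, 3 for each stage of oocyte maturation. The stages were the germinal vesicle stage (GV, prophase arrest, 0 h after human chorionic gonadotropin, hCG), metaphase I (MI, 4 h after hCG) and metaphase II (MII, the arrested egg, 14 h after hCG). All mice had been primed with pregnant mare's serum gonadotropin (PMSG) 48 h earlier, and the labels give no strain, age or genotype. The labels call the samples biological replicates of 3 independent sets without naming animals, so a p-value reflects the spread among these arrays alone, and part of that spread may be technical. A polysome signal depends on how much of an mRNA an oocyte holds and on how much of it carries ribosomes, and these cannot be told apart here, nor can fewer cells and less RNA per cell.

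The arrays held a strong oocyte signal and little from other ovarian cells. All 10 oocyte markers (among them Zp3 and Gdf9) lay at or above an intensity of 100 on every GV and MI array and 9 of 10 on every MII array, with summed intensities of 49913 to 54593 at GV, 45270 to 49475 at MI and 27869 to 34732 at MII. The 12 granulosa and cumulus markers summed to 147 to 378 at GV, 214 to 858 at MI and 159 to 323 at MII, with the highest sum on MI 3. By limma's test 1 of the 12 (8.33%) was lower at MII than at MI, beside 6.83% of all genes, and none was higher. It was Tnfaip6, with 2.44, 4.86 and 4 at GV, 75.9, 77.4 and 45.8 at MI and 3.08, 23.7 and 2.19 at MII (log2 change -1.76, adjusted p = 0.018). The 2 theca markers summed to 44.9 to 410 over all arrays, and the 4 blood cell markers to 109 to 593 at GV and MI and 606 to 849 at MII. The MII sums of the blood cell list were mostly Pecam1, an endothelial and blood cell adhesion molecule, at 569, 627 and 785, and Cd68, Ptprc and Hba-a1 were at 38.9 or lower on every MII array. The part of these other cell types in the results was not tested. On each array 53.1% to 54.8% of all probe sets had an intensity under 16, and the files give no detection calls.

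RefSeq start sites were available for 43 of the 49 members, and the 30 bases from 10 before to 20 after each start are shown for members that the results turn on, 5′ to 3′, with the longest run of C and T in capitals. Coordinates are of GRCm38.p6.
Rpl38 (chr11:114668570-114668599, plus strand): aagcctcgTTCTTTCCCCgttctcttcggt
Rpl27a (chr7:109519185-109519214, plus strand): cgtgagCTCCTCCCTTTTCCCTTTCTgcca
Rps10 (chr17:27635225-27635254, minus strand): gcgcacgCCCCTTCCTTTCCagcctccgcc
Rps27 (chr3:90213629-90213658, minus strand): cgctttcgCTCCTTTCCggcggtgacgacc
Rps27l, upstream start (chr9:66946076-66946105, plus strand): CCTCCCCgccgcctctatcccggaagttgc
Rps27l, downstream start (chr9:66946403-66946432, plus strand): gggCTTCagggtcactaacgggcctcgcag
Rpl22l1 (chr3:28805498-28805527, plus strand): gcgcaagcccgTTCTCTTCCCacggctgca
Rpl7l1 (chr17:46782637-46782666, minus strand): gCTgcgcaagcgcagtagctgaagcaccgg
Rpl4 (chr9:64173377-64173406, plus strand): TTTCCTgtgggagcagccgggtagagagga
In Rpl38, Rpl27a, Rps10 and Rps27 the run spans the start, and in Rps27l the runs are shorter and lie before it. Other members go the other way. Rpl35, which was not called lower from MI to MII, has a run of 18 bases that spans the start. Rpl22, which was called lower, has longest runs of 3 and 5 bases, both before the start.

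A run of at least 8 bases of C or T, in any order, lay in this window in 17 of the 43 members (39.5%), against 13.1% of 17492 protein-coding genes with a start in the same table. Read in the direction of the mRNA, as printed above, the letters CTTTC occurred in 11 members (25.6%), against 4.13% of all protein-coding genes. Their reverse complement GAAAG occurred in 2 members (4.65%), against 3.77%. CTTTC lies within longer C and T runs, so the first 2 measures overlap. Among members lower at MII than at MI the run was present in 13 of 32 (40.6%), and among the other members in 4 of 11 (36.4%). A match is a description of these letters only, and a RefSeq start can lie some bases away from the start that oocytes use.

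Between MI and MII the polysomal signal of the ribosomal protein genes dropped. At MII 37 of the 49 members were lower than at MI by limma's test (adjusted p under 0.05), none was higher and 12 did not pass, which is 75.5% of the members lower, beside 6.83% of all genes called lower and 2.52% called higher. The median change of the members was -2.92 on the log2(intensity + 16) scale, or 7.59-fold lower at MII, against -0.02 over all genes. In 42 of the 49 members the 3 MII arrays all lay below the 3 MI arrays, a pattern found in 15.4% of all genes. The members are bright, and bright genes fell more often here: of 2025 genes with a mean GV intensity of at least 1000, 31.8% were lower at MII than at MI, with a median change of -0.91.

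**Figure D1:**
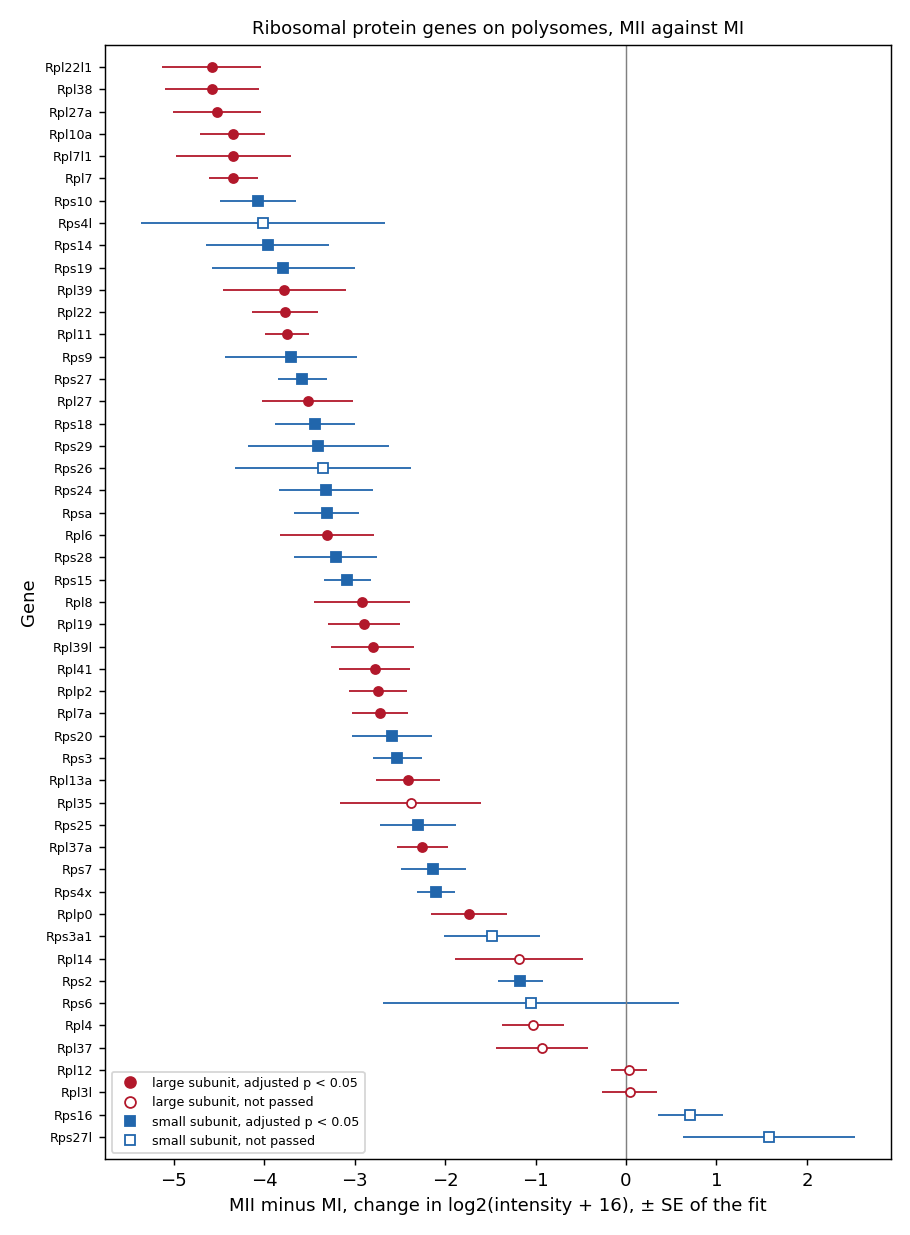
Change in log2(intensity + 16) from MI to MII (x axis) for each of the 49 genes (y axis), with the standard error of the fit. Circles are large and squares small subunit genes, filled where the adjusted p was under 0.05. Changes run from -4.58 (Rpl22l1 and Rpl38) to 1.58 (Rps27l), and the 37 filled symbols all lie below 0.

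The falls were deepest in single large subunit genes. Rpl38, which mouse embryos need in full dose to pattern the skeleton, had intensities of 7127, 4666 and 5473 at GV, 7609, 6547 and 5337 at MI and 451, 364 and 94.1 at MII. All MII arrays lay far below every GV and MI array, and the log2 change from MI to MII was -4.58 (SE 0.52, adjusted p = 0.00255). Rpl27a, mutated in the mouse Sooty foot ataxia line, had 4349, 2709 and 3278 at GV, 3350, 1929 and 3101 at MI and 78.3, 241 and 54.4 at MII, a change of -4.52 (SE 0.49, adjusted p = 0.00232). Its dimmer probe set (34.2 to 41.3 at GV) gave 0.45. Rpl10a, the protein of the mobile stalk at the tRNA exit side, had 2619, 3556 and 4647 at GV, 4175, 3429 and 3926 at MI and 301, 123 and 136 at MII, a change of -4.35 (SE 0.36, adjusted p = 0.00125).

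The GV and MI arrays of these genes overlapped, and the MII arrays stood apart. Rpl7, an RNA-binding protein of the large subunit, had 2498, 2866 and 3137 at GV, 2912, 1892 and 2795 at MI and 137, 77.4 and 117 at MII (change -4.34, SE 0.27, adjusted p = 0.000781). Rpl11, which also binds Mdm2 and so stabilises p53 when ribosome assembly stalls, had 4844, 4434 and 5270 at GV, 4535, 4107 and 5578 at MI and 298, 447 and 278 at MII (change -3.75, SE 0.24, adjusted p = 0.000781). Rpl7 and Rpl11 had the smallest p of all members in this comparison.

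Small subunit members fell over a similar range. Rps10, one of the genes mutated in human Diamond-Blackfan anaemia, had 1831, 2432 and 3860 at GV, 2499, 2422 and 3886 at MI and 116, 281 and 113 at MII, a change of -4.07 (SE 0.42, adjusted p = 0.00201). Rps14, whose loss of one copy causes anaemia in a human myelodysplastic syndrome, had 6500, 3946 and 3730 at GV, 5966, 5199 and 3381 at MI and 964, 124 and 190 at MII (change -3.96, SE 0.68, adjusted p = 0.0118). Array MII 1 was several times the other MII arrays for Rps14, and still below every GV and MI array. Rps27, a zinc finger protein of the small subunit, had 3472, 2385 and 2474 at GV, 2668, 2784 and 3086 at MI and 157, 251 and 278 at MII (change -3.58, SE 0.27, adjusted p = 0.00103).

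Rps18 had 2813, 2137 and 3799 at GV, 3350, 2193 and 2517 at MI and 334, 321 and 108 at MII (change -3.44, adjusted p = 0.00394), with 2 other bright probe sets also below 0 at -2.71 and -3.02. Rps19, the gene most often mutated in human Diamond-Blackfan anaemia, had 4956, 5424 and 5787 at GV, 3464, 3955 and 2703 at MI and 159, 995 and 64.2 at MII, a change of -3.79 (SE 0.79, adjusted p = 0.0234). The call of Rps19 did not hold in the fits that omitted MI 1, MI 2, MII 1 or MII 3, where its adjusted p was 0.0533 to 0.0777. Rps9 fell by 3.70 on the log2 scale (adjusted p = 0.0191), a call lost without MI 2 (0.0632) or MI 3 (0.0526).

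The remaining falls were of intermediate size. Rps24, Rps15, Rps28 and Rpsa, the protein also known as the laminin receptor precursor, changed by -3.32, -3.08, -3.21 and -3.31, with adjusted p from 0.00128 to 0.00812. Rps3, which lines the mRNA entry channel, fell by 2.53 and the X-linked Rps4x by 2.10. Rps20 fell by 2.59 and Rps7 by 2.13. Rpl27, Rpl6, Rpl19, Rpl41, Rpl7a, Rpl13a and Rpl37a changed by -3.52, -3.31, -2.90, -2.78, -2.72, -2.41 and -2.25. These genes passed in the fit of all arrays and in all 9 fits that left out 1 array. The other probe sets of Rpl13a gave -2.22, -1.76 and -0.21 from MI to MII. The one at -0.21 had 666, 635 and 994 at GV and 604, 1014 and 753 at MII, so the fall of Rpl13a depends on the probe set. At least 1 dimmer probe set, with a GV mean under 100, lay at or above 0 for each of Rpl41, Rps18, Rps20, Rps24, Rps3, Rps4x and Rps9 (changes of 0.00 to 0.73 at those probe sets). With the mean of all probe sets of a gene in place of the brightest, Rps3 (-0.64, adjusted p = 0.32) and Rps4x (-0.97, adjusted p = 0.573) did not pass.

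Calls of some members were lost when 1 array was left out. Of the 37, 30 passed in all 9 fits that left out 1 array. The other 7 were Rps19 and Rps9, given above, with Rps29, Rplp0, Rps2, Rpl39 and Rpl8. Rps29 (-3.40, adjusted p = 0.0336) was lost in 7 of the 9 fits, those without any 1 GV or MI array or without MII 2 (adjusted p from 0.0506 to 0.101). Without a GV array its change stayed at -3.40, so only the test differed there. Rps2 (-1.17, adjusted p = 0.0251) was lost in the fits that omitted MI 1, MI 2, MII 2 or MII 3 (0.0718 to 0.0813), Rpl39 without MI 1 (0.0504) or MI 2 (0.0521), and Rpl8 without MI 2 (0.0547).

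The stalk proteins, which recruit the elongation factors to the ribosome, fell as well. Rplp2, an acidic stalk protein, had 6678, 5807 and 10141 at GV, 2918, 4963 and 4343 at MI and 603, 712 and 455 at MII (MII minus MI -2.74, SE 0.32, adjusted p = 0.00276). Rplp0, the scaffold of the stalk, had 1789, 1641 and 1721 at GV, 690, 1079 and 1209 at MI and 484, 304 and 143 at MII (MII minus MI -1.74, SE 0.42, adjusted p = 0.0384). In both genes the 3 MI arrays lay below the 3 GV arrays, a pattern found in 6.07% of all genes. From GV to MI neither passed the test (changes of -0.88 and -0.82, adjusted p = 0.625 and 0.783, for Rplp2 and Rplp0). The call of Rplp0 from MI to MII was lost in 8 of the 9 fits that left out 1 array, all but the one without MII 1 (adjusted p from 0.0548 to 0.116).

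Large and small subunit genes gave similar counts and medians. At MII 20 of 26 large subunit genes (76.9%) and 17 of 23 small subunit genes (73.9%) were lower than at MI, with median changes of -2.85 (quartiles -3.78 and -2.28) and -3.21 (quartiles -3.51 and -2.11). The medians differed by 0.36 on the log2 scale, large minus small, and this difference was -0.38 with the mean of all probe sets of a gene in place of the brightest. It was 0.14 without MI 1, 0.20 without MI 2, -0.11 without MII 2 and 0.02 without MII 3, so its sign depends on the array and on the probe set. No test of a score over the members was made. Without Rps4l the small subunit median was -3.14.

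Each gene was then set against its own GV mean on the log2(intensity + 16) scale, array by array. The large subunit genes had median deviations of -2.86, -2.88 and -3.86 on MII 1, MII 2 and MII 3, and the small subunit genes -2.79, -2.95 and -3.65. On MI 1, MI 2 and MI 3 these medians were -0.09, -0.07 and -0.11 for the large and -0.06, -0.09 and -0.39 for the small subunit. Both subunits were lowest on MII 3, which was the lowest MII array for 28 of the 42 members with a mean GV intensity of at least 1000. Over all genes with that GV mean, the MII medians were -0.99, -1.18 and -1.38. These genes were chosen by the same GV arrays that the deviations are taken from, so falls are partly built in.

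**Figure D2:**
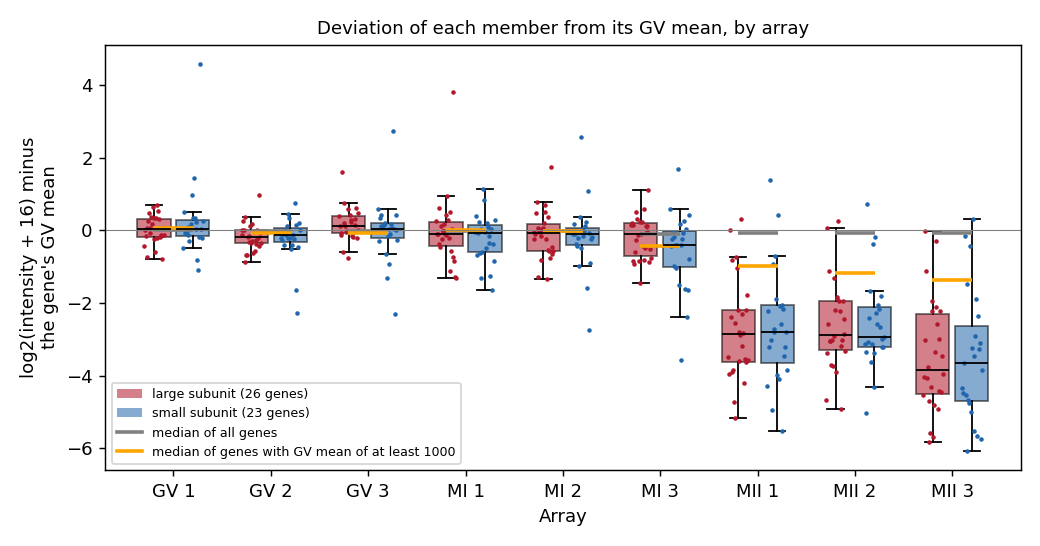
Deviation of each member from its own GV mean in log2(intensity + 16) (y axis) on each of the 9 arrays (x axis). Boxes show the median and quartiles of 26 large (left of each pair) and 23 small subunit genes, whiskers reach the last point within 1.5 box lengths, points are genes, and bars mark the median of all genes and of genes with a mean GV intensity of at least 1000. The medians sit near 0 on GV and MI arrays and between -2.79 and -3.86 on the MII arrays.

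How much signal was left at MII varied between genes. Among the 42 members with a mean GV intensity of at least 1000, the mean MII intensity was 11.9% of the mean MI intensity in the median, from 3.63% in Rpl22l1 to 205% in Rps27l. It was below 5% in 5 genes and below 20% in 33. Rps2 kept 44.8% and Rpl4 48.3%.

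The members that did not fall from MI to MII by the test were Rps27l, Rpl35, Rps26, Rps3a1, Rpl4, Rps4l, Rps6, Rpl14, Rpl37, Rpl12, Rpl3l and Rps16. Rps27l alone among members with a mean GV intensity of at least 1000 had a change above 0. Rps27l, a paralogue of Rps27 that p53 induces, had 5064, 1296 and 979 at GV, 1330, 1685 and 142 at MI and 2505, 1631 and 2338 at MII. Its MII arrays lay within the range of its GV arrays and overlapped the MI arrays, so neither a rise nor a fall was shown (MII minus MI 1.58, SE 0.95, adjusted p = 0.412; MII minus GV 0.19, adjusted p = 0.944). Its other 2 probe sets gave 1.62 and 1.76 from MI to MII, and were likewise low on MI 3 (89.9 and 71.5). Without MI 3 the change of Rps27l was 0.50 (adjusted p = 0.776).

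Rpl35, Rps26, Rps3a1 and Rpl4 had a high signal and changes below 0 that did not pass. Rpl35, a protein at the exit of the peptide tunnel, had 11775, 9239 and 10152 at GV, 11648, 9269 and 5768 at MI and 6157, 1357 and 503 at MII (change -2.38, SE 0.78, adjusted p = 0.111). MII 1 overlapped the MI arrays, and without MII 1 the gene passed (-3.34, adjusted p = 0.0111). Another of its probe sets, with 265, 588 and 179 at MII, changed by -4.25 (adjusted p = 0.00231 over all probe sets). With the mean of all its probe sets Rpl35 passed at -2.63 (adjusted p = 0.0211).

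Rps26, which contacts mRNA near the exit channel, had 4694, 3042 and 948 at GV, 4257, 1713 and 825 at MI and 629, 106 and 58.4 at MII (change -3.35, SE 0.97, adjusted p = 0.0735). Its spread within each stage was wide, while all MII arrays lay below all MI arrays, and it passed without MII 1 (-4.27, adjusted p = 0.0317). Rps3a1 had 779, 2373 and 1449 at GV, 1096, 453 and 1660 at MI and 324, 296 and 363 at MII (change -1.48, SE 0.53, adjusted p = 0.142). Against GV, Rps26 (-3.74, adjusted p = 0.0377) and Rps3a1 (-2.04, adjusted p = 0.0388) were lower at MII, but both calls were lost in several fits that left out 1 array. That of Rps26 was lost without GV 1, GV 2, MI 2, MII 2 or MII 3, with 0.0607 to 0.12 as its adjusted p. That of Rps3a1 was lost without any array other than GV 1, MI 2 or MI 3 (adjusted p from 0.0579 to 0.111).

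Rpl4, which reaches into the peptide tunnel, had 7978, 3274 and 4411 at GV, 2249, 1915 and 2757 at MI and 972, 1257 and 1115 at MII. The change was -1.09 from GV to MI (adjusted p = 0.548) and -1.03 from MI to MII (adjusted p = 0.112), and over the whole span -2.12 (adjusted p = 0.00592). From MI to MII it passed without GV 1 (adjusted p = 0.0484). The arrays of the 3 stages did not overlap in this gene.

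The other members that did not pass had little signal or a wide spread. Rps4l had 612, 406 and 8835 at GV, 541, 2812 and 414 at MI and 13.1, 196 and 10.5 at MII (change -4.01, SE 1.35, adjusted p = 0.118), with GV 3 and MI 2 far above the other arrays of their stage. Rps6, the target of the S6 kinases, had 4475, 22.8 and 21.9 at GV, 44.4, 12 and 20.1 at MI and 1.1, 4.41 and 3.61 at MII at its brightest one-symbol probe set, so its GV mean rests on GV 1. The other probe set of Rps6 stayed below 10 on every array.

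Rpl14 (from 1 to 97.2 over the 9 arrays) and Rpl37 (from 1.82 to 91.4) stayed below 100, and Rpl12 (from 1.4 to 7.18), the striated muscle paralogue Rpl3l (from 1 to 15.4) and Rps16 (from 1 to 33.6) stayed near background. Their changes from MI to MII were -1.18, -0.93, 0.03, 0.04 and 0.71, with adjusted p from 0.315 to 0.971.

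Members and their paralogues were set side by side, each on its own probe set. Rpl22l1, the paralogue of the RNA-binding Rpl22, had 1229, 796 and 2184 at GV, 1081, 1261 and 1073 at MI and 33.2, 83.9 and 6.88 at MII (change -4.58, SE 0.55, adjusted p = 0.0032). Rpl22 had 5692, 2541 and 4749 at GV, 4430, 4281 and 5848 at MI and 273, 482 and 289 at MII (change -3.77, SE 0.36, adjusted p = 0.00161). Both fell, and of the other probe sets of Rpl22, 1 gave -3.12 and 1 gave -0.03.

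Rpl39, a small protein lining the peptide tunnel, had 1732, 2936 and 3509 at GV, 5055, 4238 and 3079 at MI and 362, 700 and 78.2 at MII (change -3.78, adjusted p = 0.0147). Its male germ cell paralogue Rpl39l had 2431, 1232 and 2349 at GV, 2321, 2712 and 1424 at MI and 247, 528 and 175 at MII (change -2.80, adjusted p = 0.0104). Both were lower at MII on every array. The X-linked Rps4x had 3652, 4565 and 4196 at GV, 4212, 3901 and 4193 at MI and 915, 1158 and 794 at MII, a change of -2.10 (SE 0.21, adjusted p = 0.00178), beside the widely scattered values of Rps4l. The pair Rps27 and Rps27l differed in sign, at -3.58 and 1.58, and the difference between them was not tested. Without MI 3 the change of Rps27l was 0.50.

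**Figure D3:**
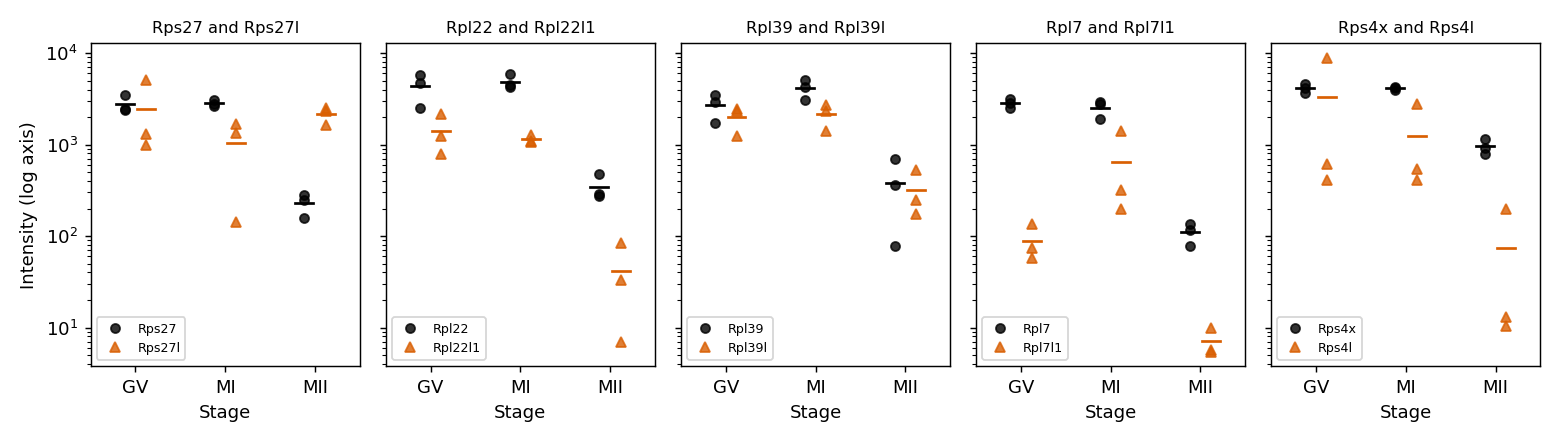
Intensity (y axis, log scale) at GV, MI and MII (x axis) for 5 pairs of a ribosomal protein gene (black circles) and its paralogue (orange triangles). Points are arrays and bars the mean of 3. Rps27l stays between 1631 and 2505 at MII, while the other paralogues sit lower at MII than at MI. Heights of different genes come from different probe sets and are not comparable as amounts.

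From GV to MI none of the 49 members passed the test, and 0% of all genes did, in either direction. Their median change was -0.18, against 0.01 over all genes, and 6 members had an unadjusted p under 0.05. Without MI 3, the array with the highest granulosa and cumulus sum, the median was -0.08. Rps25, a small subunit protein that viral internal ribosome entry sites need, had the smallest p of the members, with 20, 27.3 and 4.29 at GV, 53.7, 173 and 86.1 at MI and 3.48, 8.58 and 7.69 at MII (MI minus GV 1.80, adjusted p = 0.383). Rpl7l1, a paralogue of Rpl7, had 73.2, 57.7 and 136 at GV, 1393, 319 and 200 at MI and 5.76, 10 and 5.47 at MII (MI minus GV 2.22, adjusted p = 0.505). These are values of its brightest probe set. Its other probe sets, at 22.4 or lower on every array, gave 0.11 and -0.23 from GV to MI and -0.03 and -0.24 from MI to MII.

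Rps25 and Rpl7l1 alone among the members had this order: all MI arrays lay above all GV arrays, a pattern found in 6.44% of all genes. From MI to MII both were lower (Rps25 -2.30, adjusted p = 0.0151; Rpl7l1 -4.34, SE 0.64, adjusted p = 0.00675). Against GV neither passed at MII (-0.49 and -2.12, adjusted p = 0.561 and 0.0658). In 5 members, Rplp2, Rplp0, Rps20, Rps19 and Rpl4, all MI arrays lay below all GV arrays, a pattern found in 6.07% of all genes. Rps20 had 5551, 7355 and 7501 at GV, 2698, 3390 and 3295 at MI and 957, 530 and 247 at MII, with a change of -1.11 from GV to MI (adjusted p = 0.664).

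Against GV, 38 members were lower at MII and none higher, which is 77.6% lower beside 8.94% of all genes called lower and 5.52% called higher, with a median change of -3.40 against -0.03. Of the 2025 genes with a mean GV intensity of at least 1000, 42% were lower at MII than at GV, with a median change of -1.23. That cut uses the GV arrays themselves, so it favours genes that were high at GV, and falls are partly built in. The comparison of MII with GV shares the MII arrays with that of MII with MI. Rpl4, Rps26 and Rps3a1 were called here and not against MI, and Rpl7l1 and Rps25 against MI and not here; these differences between calls were not tested. The largest changes were in Rpl27a (-4.83, adjusted p = 0.00132), Rpl22l1 (-4.76, adjusted p = 0.00189) and Rpl7 (-4.52, adjusted p = 0.000455). Of large and small subunit genes, 20 of 26 and 18 of 23 were lower.

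The change from MI to MII was set against the change from GV to MI in 1 test per gene. Of the members 4 passed, Rpl7, Rpl11, Rps27 and Rpl10a, with differences of -4.16, -3.71, -3.64 and -4.48 and adjusted p from 0.036 to 0.0466, beside 0.247% of all genes called lower and 0.011% called higher. In each of these genes the GV and MI arrays overlapped. The calls were lost in all fits that left out a GV or MI array or MII 3 (adjusted p from 0.06 to 0.184), and without MII 2 only that of Rpl11 was kept. With a pseudocount of 1, with equal 95th percentiles of all arrays or without the lowest 40% of genes no member passed this test. The same held with the replicate number as a block. Rpl7l1 had the largest difference, -6.57 (adjusted p = 0.0622).

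More than 1 probe set stood for 24 of the members. Fitted as separate units over all 45037 probe sets, 61 of the 105 one-symbol probe sets of members (58.1%) were lower at MII than at MI and none was higher, beside 3.85% of all probe sets called lower and 1.57% called higher, with a median change of -2.73. Of the 110 probe sets that list several symbols, at least 1 of them a ribosomal protein gene, 64 (58.2%) were lower and 1 was higher, with a median of -2.84. These probe sets are not assigned to a gene here. The standing probe set of 15 members carries a suffix that marks possible binding to other transcripts. Among the 44 members with a probe set without such a suffix, the brightest of those was lower in 28 and higher in none, with a median of -2.77.

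Other genes of protein synthesis were counted in the same fit, beside the 6.83% of all genes called lower from MI to MII. Among genes with a mean GV intensity of at least 1000 that share was 31.8%, and these lists hold bright and dim genes. Fau, whose product carries the small subunit protein eS30 outside the symbol rule, had 4778, 3400 and 5205 at GV, 3861, 2909 and 2080 at MI and 320, 132 and 161 at MII (change -3.80, adjusted p = 0.00174). Its MII arrays all lay far below its GV and MI arrays, as in most members. Of 18 further mRNAs with a TOP tract, Fau among them, 8 (44.4%) were lower and none higher, with a median change of -1.42. Among these Eif3f, an initiation factor subunit, changed by -2.97 (adjusted p = 0.00167) and Ahcy, which breaks down S-adenosylhomocysteine, by -3.12 (adjusted p = 0.0356), a call lost without any 1 MI or MII array (adjusted p from 0.0648 to 0.115).

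Of 34 initiation factor genes, 12 (35.3%) were lower and none higher, with a median of -1.05. The largest changes were in Eif3k (-3.98, adjusted p = 0.00131) and Eif3m (-3.95, adjusted p = 0.00361), subunits of the scaffold factor eIF3, and in Eif1b (-3.61, adjusted p = 0.000781). Of 12 elongation and release factor genes 2 were lower (16.7%, median -1.11), the elongation factor Eef1a1 (-1.14, adjusted p = 0.0123) and Eef1e1, which belongs to the multi-tRNA synthetase complex (-1.68, adjusted p = 0.0134). Some genes stand on both the TOP list and these lists. Of 15 regulators of TOP mRNAs 1 was lower (6.67%, median 0.01). It was Larp1b, a paralogue of Larp1 (-1.93, adjusted p = 0.0205), and its call was lost without MI 1 (0.0505), MI 2 (0.0599) or MII 3 (0.0639). Larp1 itself (from 3.34 to 13.9 over the arrays) and Tia1 (from 1.52 to 17.5) stayed near background, where a change could hardly be seen.

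Proteins of the mitochondrial ribosome are encoded by a separate set of nuclear genes. Of 77 such genes 26 (33.8%) were lower and 1 higher, with a median of -1.66. Mrps28 changed by -5.52 (adjusted p = 0.00428), Mrpl33 by -4.94 (adjusted p = 0.0151) and Mrps6 by -4.54 (adjusted p = 0.0246). The call of Mrpl33 was lost without MI 2 (0.0574), and that of Mrps6 without MI 1 (0.0766), MI 2 (0.079) or MII 3 (0.052). Mrpl3 was higher, with 334, 400 and 522 at GV, 413, 313 and 397 at MI and 1860, 1776 and 1933 at MII (change 2.27, adjusted p = 0.00174).

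Among 58 ribosome biogenesis genes 13 (22.4%) were lower and 1 higher, with a median of -0.65. Dkc1, the pseudouridine synthase of ribosomal RNA, changed by -5.05 (adjusted p = 0.000818), Gnl3 (nucleostemin) by -4.11 (adjusted p = 0.0107) and Nop56, a core protein of the methylation-guiding snoRNPs, by -3.94 (adjusted p = 0.0261). Nip7, which acts in large subunit assembly, was higher (3.16, adjusted p = 0.0154). The call of Nop56 did not hold in 4 fits, those that omitted MI 1, MI 2, MII 2 or MII 3 (0.0752 to 0.0859), and that of Nip7 without MI 1 (0.0537) or MII 3 (0.0555). Of 14 RNA polymerase I genes 4 (28.6%) were lower and none higher, with a median of -1.04. Taf1d (-3.04, adjusted p = 0.00275) and Taf1b (-2.13, adjusted p = 0.0199) belong to its promoter selectivity factor and Znrd1 (-2.19, adjusted p = 0.0189) to the enzyme itself. Taf1b was lost without MI 2 (0.0517), and Znrd1 without MI 1 (0.0635) or MI 2 (0.0672).

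**Figure D4:**
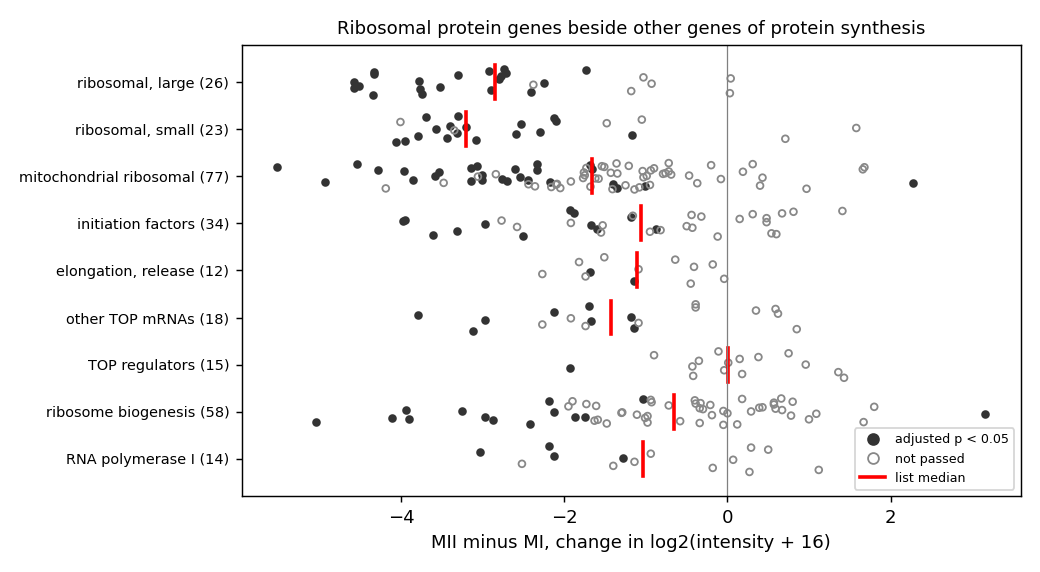
Change in log2(intensity + 16) from MI to MII (x axis) for the genes of each list (y axis, number of genes in brackets). Points are genes, filled where the adjusted p was under 0.05, and red bars are list medians. The medians of the large and small subunit genes, -2.85 and -3.21, lie lowest, that of the mitochondrial ribosomal genes is -1.66, and that of the TOP regulators is 0.01. The TOP regulators include genes near background, such as Larp1.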

How the data were processed

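Polysome-bound mRNA of 9 oocyte samples was reverse-transcribed and linearly amplified, and the cDNA was labelled with biotin, per the labels' protocols. The deposited values are one intensity on a linear scale per probe set and array; the sources used here do not say how probes were summarised, corrected or scaled. The labels' descriptions of the MI arrays read pGVB, while title, source and stage say MI, which was followed. Array medians lay between 12.39 and 13.22 and 95th percentiles between 1126 and 1458, and precision is limited by having 3 arrays per stage.

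Of 45101 probe sets, 64 controls were left out, and the 34945 with 1 symbol in the platform annotation gave 18193 genes, each by its brightest probe set over all arrays. The 932 probe sets with several symbols and 9160 with none were not used as genes. RefSeq (GRCm38.p6) held 18032 of the genes and supplied the start sites. Values were taken as log2(intensity + 16), a scale that understates changes of dim genes, without a filter. All 9 arrays entered one model of stage means (lmFit and eBayes, limma 3.58.1, R 4.3.3), tested two-sided, with Benjamini-Hochberg adjustment over all genes and a threshold of 0.05. Tested on simulated data for MII minus MI (18193 genes), the fit recovered 19.9% of 4-fold and 43.6% of 8-fold falls. Only 100 genes per fold were lowered there, taken from genes above the median GV signal. In the data 1243 genes were called lower and most members are bright, so those shares are not rates for the members. A member that did not pass may still have fallen.

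Members and lists were chosen with earlier results of these data known, so no test was made over them. The rule for genes named with values took the members not lower from MI to MII, the 6 largest falls per subunit, step differences, paralogues with their parents, members whose probe sets differ in sign, and up to 3 passing genes per list, by size of change. Other members, and Mrpl3 and Nip7, were named after their values were seen. Alternatives were the pseudocount, the scaling, a filter on dim genes, the mean of all probe sets, a replicate block and leaving out each array. Fitting every probe set, leaving out the pseudogene and leaving out suffixed probe sets were added after seeing the data.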

Additional observations from a re-analysis of the deposited data

How the results depend on the processing

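The number of members lower at MII than at MI was 35 to 37 under the alternatives of pseudocount, scaling, filter, probe set and block, and 30 to 38 when 1 array was left out; against GV it was 36 to 41 and 34 to 39. The count from GV to MI was 0 in every fit. The median change from MI to MII moved to -2.35, and that against GV to -2.56, with the mean of all probe sets of a gene, which brings in dim probe sets. With 1 array left out these medians ran from -3.21 to -2.70 and from -3.48 to -3.01, and that from GV to MI from -0.23 to -0.08. The large minus small difference became -0.38 under the same alternative and ran from -0.11 to 0.36 with 1 array left out. The count of step differences was 0 with a pseudocount of 1, with equal 95th percentiles of all arrays, with the replicate block and without the lowest 40% of genes, 8 with a pseudocount of 64, and 0 to 5 with 1 array left out. The cause was not tested. Lower calls over the related lists numbered 62 with all arrays and 37 to 59 with 1 left out, 37 without MI 2. Rplp0 did not pass with a pseudocount of 1 (adjusted p = 0.083) or equal 95th percentiles (0.0583), nor Rps2 with a pseudocount of 1 (0.144) or without the lowest 40% of genes (0.0576), while Rps26 passed under that filter (0.0377).

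With the replicate number as a block, 37 members were lower at MII than at MI and 39 than at GV, 0 from GV to MI, and the medians and the large minus small difference (0.36) did not move. Rps26 passed under the block (adjusted p = 0.00906) and Rplp0 did not (0.0733). Residuals of same-numbered arrays correlated at 0.004 to 0.206 and of differently numbered ones at -0.232 to 0.106, and 7 of 9 arrays correlated best with their own number, a hint from the data of shared sets. The labels do not say what the number marks, and not every same-numbered pair was above 0.1, so the fit without the block was kept.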
